A study of Homo sapiens with 6 samples.

Results

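TGF-β signals through a short relay. The ligand binds a type II receptor, a constitutively active kinase at the cell surface, which phosphorylates a type I receptor; the type I kinase then phosphorylates a receptor-activated SMAD, which joins the common SMAD, SMAD4, and enters the nucleus to regulate target genes. Co-receptors without a kinase of their own present ligand to these receptors. In colorectal epithelium the pathway is known as a brake on growth, and several of its components are recurrently lost in colorectal tumours.

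The genes described here are 10 components of this relay, chosen by symbol: the type I receptors TGFBR1, ACVR1 and ACVR1B, the type II receptors TGFBR2 and BMPR2, the co-receptors TGFBR3 and ENG, and the transducers SMAD2, SMAD3 and SMAD4. All 10 were found among the 56638 gene symbols of the count tables, and all 10 passed the filter on low counts, which left 14897 genes. Total RNA was sequenced from cells labelled SW480, a line established from a human colon adenocarcinoma, grown in RPMI-1640 with fetal bovine serum at passages 16 to 19. The 3 control libraries came from cells that received no TGF-β1. The 3 treated libraries came from cells given recombinant TGF-β1 at 10 ng/ml, per the labels more than 4 times; the labels give neither the interval between doses nor the time of harvest. No genetic change is named for either group. Whether the libraries of a group stem from separate cultures is not stated, and the p-values here rest on the spread among the 6 libraries alone, which may be technical.

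The libraries held 13012898 to 16005222 reads in genes, and within each group they differed by more than sampling noise. The colorectal label was set beside 14 epithelial and colorectal markers. Of these, 10 were under 1 CPM (counts per 1000000 reads of the scaled library size) in both groups, and the intestinal transcription factor CDX2 and the colonic surface antigen GPA33 had 0 counts in all 6 libraries, which allows up to 0.0344 CPM, counting error only. The keratins KRT8 and KRT18 made up most of the summed level of that list, 1897 to 1912 CPM in control and 1782 to 1824 CPM in treated libraries; KRT8 alone stood at 1711 CPM in control. Of the 4 markers tested, 3 were lower in treated libraries, as were 23.9% of all tested genes. KRT18 went from 183 to 125 CPM, EPCAM from 6.94 to 4.06 CPM and CDH1 from 1.09 to 0.271 CPM, while KRT8 did not pass. The keratins were thus present while most colorectal markers on the list were at or near 0, and the cells are called by their label here. Fibroblast markers had summed levels of 91.7 to 95.4 CPM in control and 121 to 137 CPM in treated libraries, most of it COL1A1. Of these 11 markers 5 were tested and all 5 were higher, against 23.4% of all tested genes. COL1A1 went from 81.3 to 105 CPM, PDGFRB from 7.99 to 14.8 CPM and DCN from 3.37 to 7.54 CPM, and FAP had 1 count in control and 51 in treated libraries. COL1A2, COL3A1 and PDGFRA had 0 counts in control libraries. The part of these markers in the changes described here was not tested, and in bulk RNA fewer cells of a type and less RNA per cell cannot be told apart.

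With TGF-β1, the 10 transcripts went different ways by role. The 5 type I and type II receptor transcripts among them were higher. Both co-receptor transcripts and the receptor-activated SMAD2 and SMAD3 were lower, and SMAD4 did not pass the test. In edgeR's quasi-likelihood fit, with p-values adjusted by Benjamini-Hochberg across every gene tested and a threshold of 0.05, 9 of the 10 were thus called, 5 higher and 4 lower. Over all genes tested, 47.3% were called, 23.4% higher and 23.9% lower, so a call was common in these libraries; 9.5% were called with a change of at least 2-fold, as were TGFBR1 and TGFBR3. The median log2 fold change was 0.16 over the 10 genes and 0.00033 over all tested genes, and the median size of the change was 0.58 against 0.24. The control and treated CPM of all 10 did not overlap between groups, as was so for 54.2% of all tested genes.

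**Figure D1:**
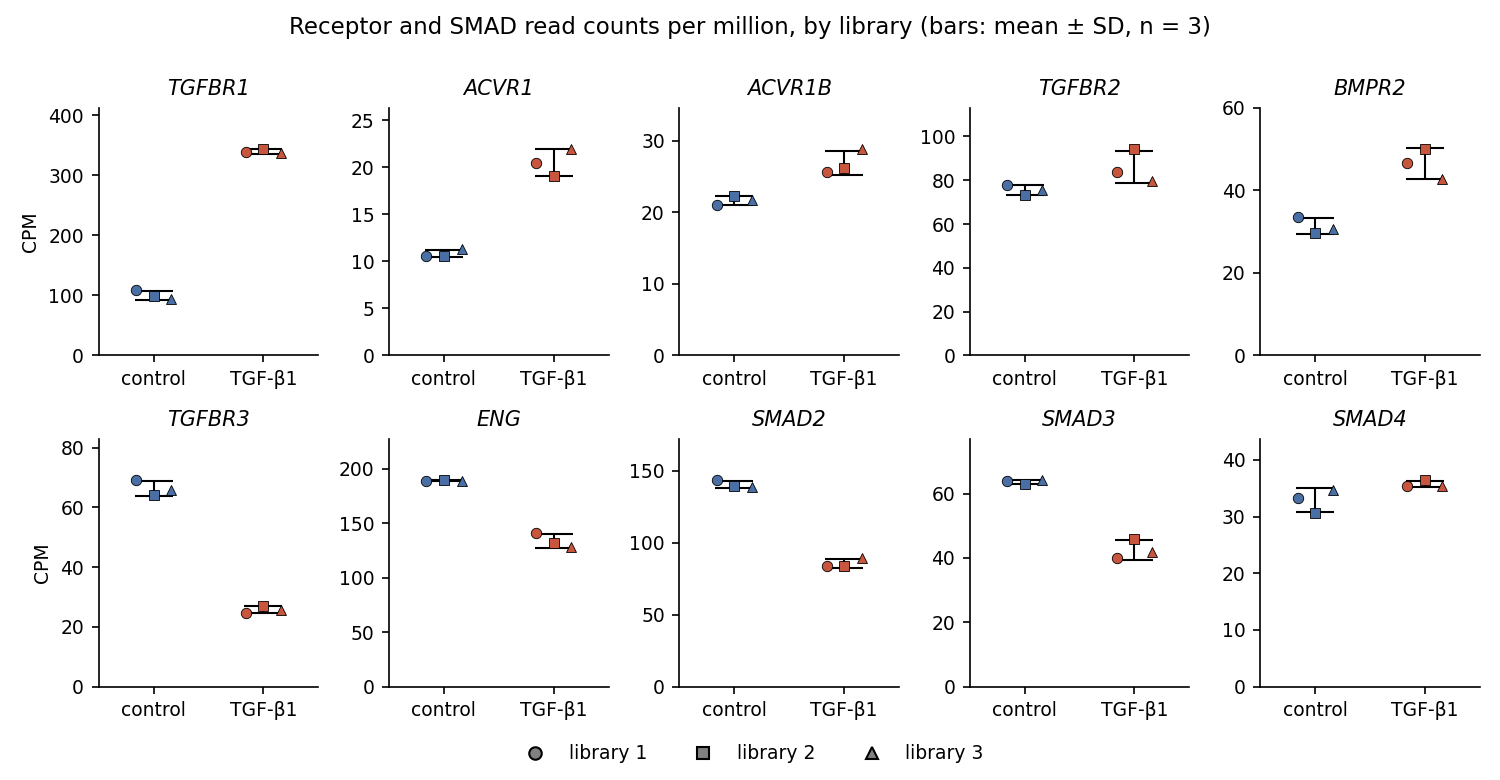
CPM of each receptor and SMAD gene (y axis, a separate scale for each gene) in the 3 control and 3 TGF-β1-treated libraries, with points for single libraries and bars for the mean ± SD. TGFBR1 lies near 100 CPM in control and near 340 CPM in treated libraries, while TGFBR3 goes from about 66 CPM to about 26 CPM.

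The promoters of 3 genes are shown here: the promoter of the gene that rose most, the gene that fell most and the gene whose window held the most SMAD boxes. Each is the 250 bases before the first listed start in the RefSeq promoter table of GRCh38.p14, printed 5′ to 3′ on the gene's strand, with capitals marking AGAC or its reverse complement GTCT, the core of the SMAD-binding element.
TGFBR1: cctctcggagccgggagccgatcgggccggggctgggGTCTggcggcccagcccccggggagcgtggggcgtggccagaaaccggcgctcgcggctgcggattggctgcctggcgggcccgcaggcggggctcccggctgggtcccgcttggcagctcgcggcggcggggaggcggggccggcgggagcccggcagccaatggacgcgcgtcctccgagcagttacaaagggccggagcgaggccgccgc
BMPR2: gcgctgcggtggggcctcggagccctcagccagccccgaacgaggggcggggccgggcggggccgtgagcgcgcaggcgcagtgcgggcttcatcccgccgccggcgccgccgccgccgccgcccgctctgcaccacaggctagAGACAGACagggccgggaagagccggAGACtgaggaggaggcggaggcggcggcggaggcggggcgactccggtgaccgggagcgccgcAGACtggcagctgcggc
TGFBR3: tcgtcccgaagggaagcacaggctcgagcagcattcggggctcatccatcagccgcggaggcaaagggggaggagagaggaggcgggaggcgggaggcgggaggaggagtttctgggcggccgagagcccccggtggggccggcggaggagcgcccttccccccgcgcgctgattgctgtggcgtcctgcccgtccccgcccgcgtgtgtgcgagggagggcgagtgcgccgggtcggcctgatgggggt
The TGFBR1 window, chr9:99104863-99105112 on the plus strand, held 1 SMAD box, 213 bases before the start, and RefSeq lists 8 starts for this gene. The BMPR2 window, chr2:202376077-202376326 on the plus strand, held 4. The TGFBR3 window, chr1:91886152-91886401 on the minus strand, held none. Of the 10 genes, 6 had the box on either strand (TGFBR1, ACVR1, TGFBR2, BMPR2, ENG and SMAD2), while 77.6% of 27305 promoter windows of the same length had it. The longer form CAGAC, which overlaps AGAC, was in 3 (TGFBR1, ACVR1 and BMPR2), against 37.8% of all windows. A GC box, GGGCGG on either strand, was in 7 of 10, against 42.3%; TGFBR1, TGFBR2 and ENG had none. No member window held TATAAA, present in 11.1% of all, or the palindrome GTCTAGAC, present in 0.176%. The windows ran from 40.8% GC (TGFBR2) to 82.8% GC (ACVR1B), with a median of 58.0% over all promoters. These matches describe letters in a window, not bound sites.

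Of the type I receptors, TGFBR1, which carries the TGF-β signal to SMAD2 and SMAD3, rose most. TGFBR1 stood at 109, 99.1 and 94.1 CPM in control libraries and at 339, 344 and 337 CPM in treated libraries. All 3 treated libraries were more than 3 times the control libraries, and the treated values lay within a narrow range. The mean rose from 100.6 ± 7.45 to 340.0 ± 3.78 CPM (SD, n = 3 each), a log2 fold change of 1.76 ± 0.053 (SE) or 3.38-fold (edgeR quasi-likelihood adjusted p = 4.20e-21). This placed its size of change at the 96.3 percentile of all tested genes.

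ACVR1, the type I receptor also called ALK2 that passes BMP and activin-family signals to SMAD1 and SMAD5, was low in both groups. Its level was 10.6, 10.6 and 11.3 CPM in control and 20.5, 19.1 and 22.0 CPM in treated libraries. Every treated library lay well above every control library. The fold change was 1.89, or 0.92 ± 0.097 on the log2 scale (edgeR quasi-likelihood adjusted p = 5.91e-09).

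ACVR1B, the type I receptor for activin and nodal that also activates SMAD2 and SMAD3, moved less. Control libraries gave 21.0, 22.2 and 21.7 CPM and treated libraries 25.5, 26.2 and 28.8 CPM. The groups did not overlap, and the gap between the highest control and the lowest treated library was narrow. The log2 fold change was 0.31 ± 0.080, or 1.24-fold (edgeR quasi-likelihood adjusted p = 0.00205).

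Of the type II receptors, BMPR2, which binds BMP ligands, had a larger fold change than TGFBR2, which binds TGF-β itself. BMPR2 was at 33.6, 29.8 and 30.7 CPM in control and at 46.7, 50.1 and 42.6 CPM in treated libraries. All treated libraries were higher. Its log2 fold change was 0.57 ± 0.073, or 1.49-fold (edgeR quasi-likelihood adjusted p = 1.85e-07).

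TGFBR2 gave 78.0, 73.1 and 75.5 CPM in control and 84.0, 94.3 and 79.8 CPM in treated libraries. The lowest treated library lay just above the highest control library, and the treated libraries spread more than the control ones. The change was 0.19 ± 0.062 on the log2 scale with a 95% interval of 0.069 to 0.31, or 1.14-fold (edgeR quasi-likelihood adjusted p = 0.0128). This call was lost when control library 2, control library 3 or treated library 2 was left out, with adjusted p of 0.0584, 0.0606 and 0.162 and log2 fold changes of 0.16, 0.18 and 0.12.

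Both co-receptors fell. TGFBR3, or betaglycan, presents TGF-β ligands to TGFBR2. It stood at 69.1, 64.2 and 65.9 CPM in control and at 24.6, 26.8 and 25.7 CPM in treated libraries. No treated library came near a control library. TGFBR3 decreased from 66.4 ± 2.49 to 25.7 ± 1.12 CPM (SD, n = 3 each), a log2 fold change of -1.37 ± 0.067, or 2.58-fold lower (edgeR quasi-likelihood adjusted p = 3.76e-16).

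ENG, endoglin, is a co-receptor for TGF-β and BMP ligands best known from endothelium. Control libraries gave 188.6, 189.6 and 189.2 CPM and treated libraries 140.6, 131.5 and 128.4 CPM. The control libraries were nearly identical, and all treated libraries lay below them. The fall was -0.50 ± 0.049 on the log2 scale, or 1.42-fold lower (edgeR quasi-likelihood adjusted p = 1.21e-09). Of 8 endothelial markers, only VWF and EGFL7 were tested, and both were lower, as were 23.9% of all tested genes. The summed level of the 8 was 29.7 to 32.3 CPM in control and 21.1 to 23.4 CPM in treated libraries. Most of it was EGFL7, at 28.1 and 21.6 CPM. The other 6 were under 1 CPM in both groups, and PECAM1 and KDR had 0 counts in all libraries. TEK, CLDN5 and TIE1 had more counts in treated libraries (3 and 12, 1 and 5, 0 and 2), and CDH5 fewer (10 and 4). The part of the endothelial markers in the ENG change was not tested. Exons of ENG share 7.95% of their length with an antisense gene in GENCODE 29, and whether the counting used strand is not stated.

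Both receptor-activated SMADs fell, in the direction opposite to the type I receptors that phosphorylate them. SMAD2 was at 143.4, 139.3 and 138.9 CPM in control and at 83.4, 84.0 and 89.2 CPM in treated libraries. Control and treated libraries were far apart. SMAD2 fell by 0.72 on the log2 scale (SE 0.052), or 1.64-fold, with an edgeR quasi-likelihood adjusted p of 2.29e-12.

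SMAD3, which binds DNA directly, gave 63.8, 62.9 and 64.2 CPM in control and 39.9, 45.8 and 41.7 CPM in treated libraries. The control libraries were close together and every treated library was lower. The log2 fold change was -0.58 ± 0.065 (edgeR quasi-likelihood adjusted p = 1.37e-08). An antisense gene overlaps 2.00% of SMAD3's exon length.

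SMAD4, the common partner, was the member that did not pass. Its level was 33.3, 30.6 and 34.7 CPM in control and 35.4, 36.4 and 35.4 CPM in treated libraries. The treated libraries sat just above the highest control library. The log2 difference was 0.12 with a 95% interval of -0.019 to 0.26 (edgeR quasi-likelihood adjusted p = 0.172), an interval that holds both 0 and a small rise. SMAD4 shares 7.37% of its exon length with another gene on the same strand. It passed with library size alone as the scaling (edgeR quasi-likelihood adjusted p = 0.0432), and also when GC and length offsets were used, a setting chosen after seeing the data (adjusted p = 0.00835, log2 fold change 0.21).

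**Figure D2:**
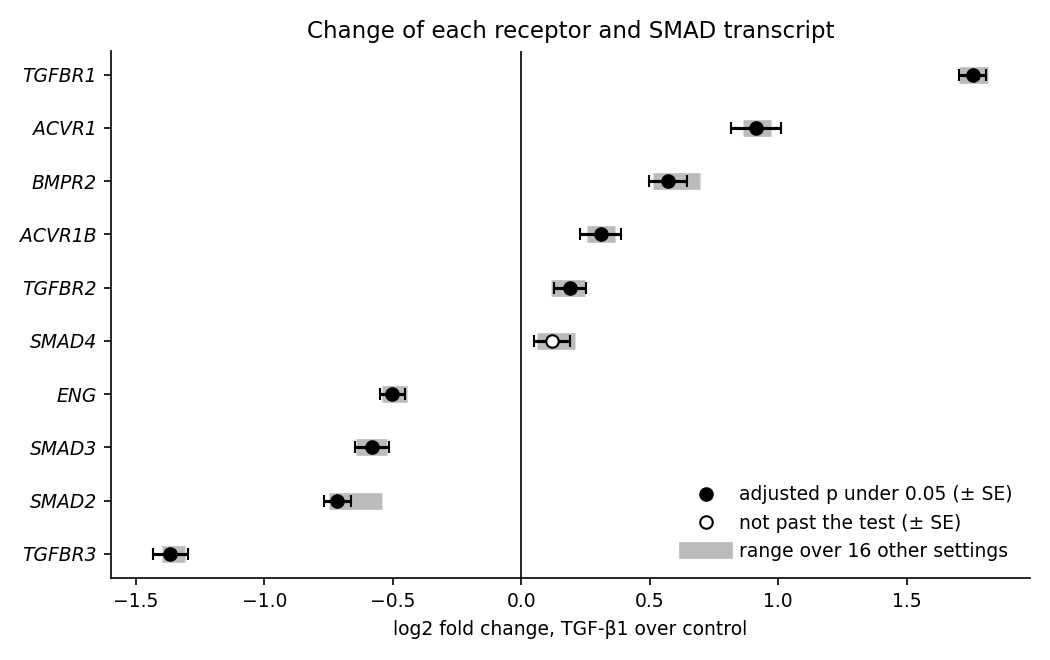
Log2 fold change of each gene, TGF-β1 over control (x axis), with the SE as bars; filled points passed the edgeR test. TGFBR1 at 1.76 and TGFBR3 at -1.37 lie at the ends, and SMAD4 at 0.12 is the open point.

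Levels of different genes were compared as CPM per kilobase of union exon length. In control libraries ENG was highest at 48.1 ± 0.122 (SD, n = 3), followed by TGFBR2 at 16.1 ± 0.514 and TGFBR1 at 14.7 ± 1.09. The next were TGFBR3 at 7.63, SMAD3 at 6.98, SMAD2 at 3.86, ACVR1B at 3.80, ACVR1 at 2.71, BMPR2 at 2.63 and SMAD4 at 2.51 CPM per kilobase. The ranges of the 3 libraries overlapped for TGFBR2 and TGFBR1, SMAD2 and ACVR1B, ACVR1 and BMPR2, and BMPR2 and SMAD4, so those orders are not set. In treated libraries TGFBR1 was first at 49.7 ± 0.552, above ENG at 33.9 ± 1.61 and TGFBR2 at 18.3 ± 1.59. ACVR1 at 5.14, ACVR1B at 4.72 and SMAD3 at 4.66 followed, with overlapping ranges for ACVR1 and ACVR1B and for ACVR1B and SMAD3. BMPR2 at 3.90, TGFBR3 at 2.95, SMAD4 at 2.72 and SMAD2 at 2.35 CPM per kilobase came last.

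TGFBR1 thus came first in treated libraries, from a control rank of 3 by union exon length, shared within error with TGFBR2, and of 4 by shortest CCDS transcript. TGFBR3 and SMAD2 moved down. ENG was first in control and TGFBR1 first with TGF-β1 under all 3 choices of length tried. Among the SMADs the control order was SMAD3, SMAD2, SMAD4 under all 3; in treated libraries SMAD4 lay above SMAD2 by union exon length and longest transcript, and below it by shortest CCDS transcript. SMAD2 in particular has a union exon length of 36366 bases, far above its shortest CCDS transcript of 12075 bases, so its level per length depends on which isoforms are counted. By shortest CCDS transcript SMAD3 stood at 55.5 CPM per kilobase in control libraries, next to ENG. By union exon length, TGFBR1 made up 69.2% ± 2.06 of the summed level of the 3 type I receptors in control libraries and 83.4% ± 1.01 in treated libraries (SD, n = 3). By shortest CCDS transcript its share was 50.4% ± 2.41 in control and 70.5% ± 1.48 in treated libraries. The summed level of SMAD2 and SMAD3 by union exon length fell from 10.8 ± 0.104 to 7.01 ± 0.332 CPM per kilobase, 1.55-fold lower. Of other receptors and SMADs on the same scale, SMAD7 went from 3.62 to 8.65, BMPR1B from 0.425 to 0.840, and SMAD6 from 2.88 to 4.51 CPM per kilobase.

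**Figure D3:**
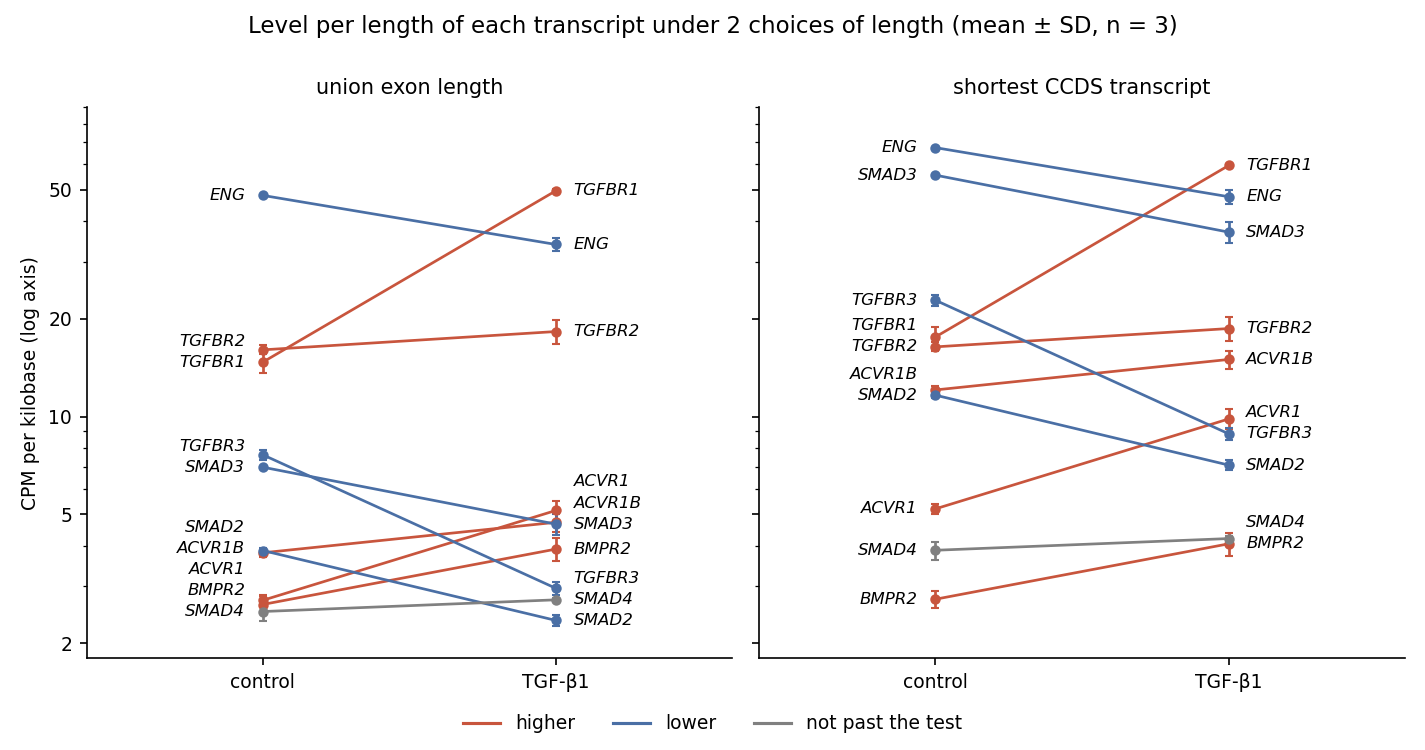
CPM per kilobase of each gene (log axis) in control and TGF-β1-treated libraries under 2 choices of length, as mean ± SD of 3 libraries. TGFBR1 rises from 14.7 to 49.7 and ENG drops from 48.1 to 33.9 CPM per kilobase of union exon length, so that their order changes.

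Ratios between members within a library need no scaling between libraries. They are given per union exon length, so the size of a ratio depends on the length chosen, while its change between groups does not. By shortest CCDS transcript, control TGFBR3 lay above TGFBR2, at 22.8 and 16.4 CPM per kilobase. The ratio of TGFBR1 to TGFBR2 was 0.958, 0.931 and 0.857 in control libraries and 2.77, 2.51 and 2.90 in treated libraries, 2.98-fold higher. The ratio of TGFBR1 to ACVR1B rose 2.73-fold, from 4.31, 3.71 and 3.60 to 11.03, 10.9 and 9.72. The ratio of TGFBR3 to TGFBR2 was 0.479, 0.474 and 0.472 in control and 0.158, 0.154 and 0.174 in treated libraries, 2.93-fold lower. These 3 pairs show the largest shifts in balance.

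The ratio of BMPR2 to TGFBR2 was 0.1701, 0.1609 and 0.1609 in control and 0.2197, 0.2098 and 0.2113 in treated libraries, a log2 change of 0.38. The ratio of TGFBR1 to ACVR1 was 5.996, 5.44 and 4.86 in control and 9.66, 10.5 and 8.95 in treated libraries, 1.79-fold higher. Within each pair the groups did not overlap. The ratio of TGFBR3 to ENG was 0.166, 0.153 and 0.157 in control and 0.0791, 0.0923 and 0.0906 in treated libraries, a log2 change of -0.86. The ratio of SMAD4 to SMAD2 rose by 0.84 and that of SMAD4 to SMAD3 by 0.71, with SMAD2 and SMAD3 lower and SMAD4 not past the test. The ratio of SMAD2 to SMAD3 moved little, at 0.563, 0.555 and 0.542 in control and 0.524, 0.460 and 0.536 in treated libraries, a log2 change of -0.13. All 9 ratios tested were without overlap between groups, with an exact two-sided permutation p of 0.1 each, the smallest that 3 against 3 libraries can give, and 0.1 after Benjamini-Hochberg adjustment over the 9 ratios. The design can therefore not reach 0.05 for any of them.

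**Figure D4:**
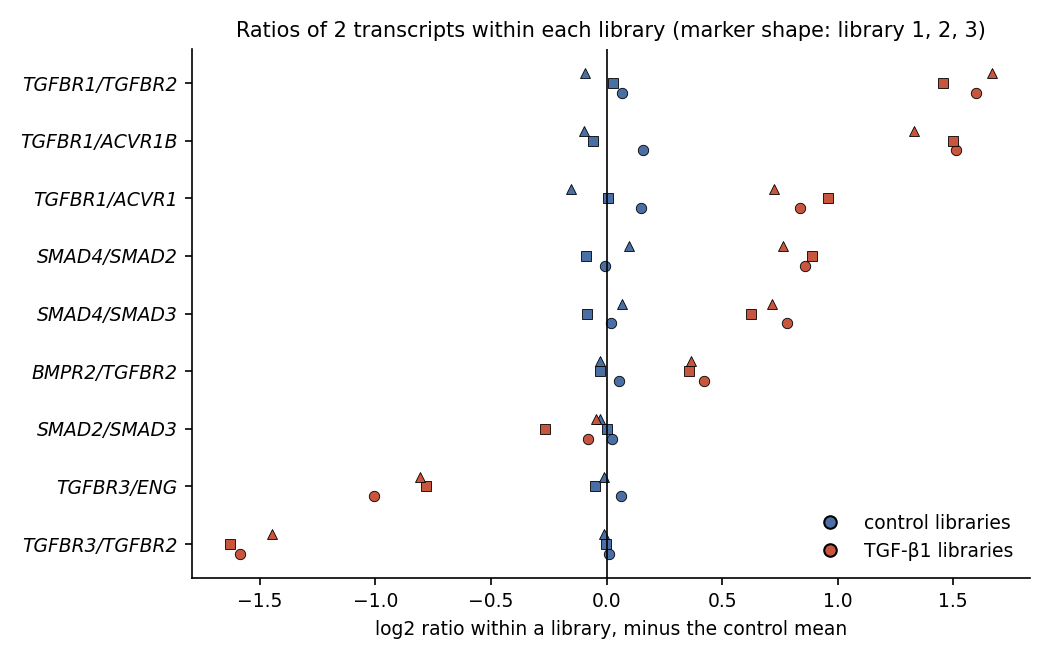
Log2 ratio of 2 transcripts within each library, minus the control mean (x axis), for 9 pairs, with 1 point for each of the 3 control and 3 TGF-β1-treated libraries. TGFBR1/TGFBR2 and TGFBR3/TGFBR2 lie farthest from 0, at 1.57 and -1.55, while SMAD2/SMAD3 stays near 0.

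The rest of the pathway was described by 70 further genes in 8 lists, of which 63 were tested. Of these, 25 were higher, 12 lower and 26 did not pass, so that 58.7% were called against 47.3% of all tested genes. Of the other type I and type II receptors, 4 of 7 were tested, with BMPR1B and ACVR2B higher and 2 not past; BMPR1B, a BMP type I receptor, went from 2.69 ± 0.355 to 5.30 ± 0.417 CPM, a log2 fold change of 0.98. The ACVR2B call (edgeR quasi-likelihood adjusted p = 0.0407) was lost with DESeq2, with no low-count filter, and without control library 2, control library 3 or treated library 2, at adjusted p of 0.104, 0.0515, 0.218, 0.120 and 0.199. Of the other SMADs, 4 of 5 were tested and 3 were higher, or 75.0% called against 47.3% of all tested genes. SMAD7, an inhibitory SMAD that recruits ubiquitin ligases to TGFBR1, rose 2.39-fold from 18.2 ± 1.70 to 43.5 ± 4.19 CPM (edgeR quasi-likelihood adjusted p = 3.96e-13). SMAD6, the inhibitor of BMP signalling, rose 1.56-fold. SMAD5, also a receptor-activated SMAD, rose 1.18-fold (edgeR quasi-likelihood adjusted p = 0.00196), unlike SMAD2 and SMAD3.

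The other co-receptors did not move together. NRP2 rose from 5.63 ± 0.570 to 25.1 ± 1.48 CPM, 4.46-fold, and CD109, which binds TGF-β and promotes receptor turnover, 1.59-fold. NRP1, like NRP2 a neuropilin that can bind TGF-β, was lower, at 79.5 ± 3.49 and 38.5 ± 0.380 CPM, a log2 fold change of -1.05. Of this list 4 were higher and 1 lower, of 5 tested. All 5 were thus called, against 47.3% of all tested genes. Only 3 were higher with DESeq2, with no low-count filter and when a term for replicate number was added. That was also so when any 1 of the control libraries, treated library 1 or treated library 3 was left out.

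Genes that act on receptors and SMADs went both ways. Of 8 adaptors, 3 were higher and 2 lower, or 62.5% called against 47.3% of all tested genes. With library size alone, upper-quartile scaling or GC and length offsets 4 were higher. Only 1 was lower with library size alone or without control library 1, treated library 1 or treated library 3. CAV1, a caveolar protein that binds TGFBR1, rose 1.93-fold, and DAB2, an endocytic adaptor, fell by 0.74 on the log2 scale. FKBP1A, which binds the type I receptor and holds it inactive, rose 1.48-fold. Of 15 ubiquitin ligases, deubiquitinases and a phosphatase, 4 were higher, 5 lower and 6 not past. That is 60.0% called against 47.3% of all tested genes. The lower count was 3 with library size alone and 6 without control library 2. It was 4 with GC and length offsets or with control library 1, control library 3, treated library 1 or treated library 3 left out. SMURF2 rose 1.62-fold and SMURF1 1.39-fold, and both are ligases recruited by SMAD7, while WWP1 fell by 0.42 on the log2 scale. Of 5 nuclear transport factors only KPNB1, importin beta, passed, and was lower, at 751 and 576 CPM. That is 1 of 5 called, a smaller share than the 47.3% of all tested genes. With GC and length offsets 1 was higher as well.

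Nuclear partners of the SMADs gave 4 higher and 3 lower of 11 tested, or 63.6% called against 47.3% of all tested genes. RUNX1, a DNA-binding partner, rose 2.55-fold from 18.8 ± 0.617 to 48.0 ± 2.22 CPM, and SKIL, a corepressor that is itself a SMAD target, 2.33-fold from 30.4 ± 2.60 to 70.8 ± 1.73 CPM (edgeR quasi-likelihood adjusted p = 6.09e-15). The 3 lower ones, named after their values were seen, were the acetyltransferases EP300 and CREBBP and the transcription factor SP1. Their log2 fold changes were -0.29, -0.26 and -0.19. Only 2 were lower with library size alone, without control library 1 or without treated library 3. In the non-SMAD branch 5 of 11 were higher and none lower, a called share of 45.5% that is near the 47.3% of all tested genes. The higher count was 4 with DESeq2 or with no low-count filter. It was also 4 without control library 1, control library 2, treated library 1 or treated library 2. With library size alone, with GC and length offsets or without treated library 3 it was 6. The lower count was 1 when control library 2 was left out or GC and length offsets were used. MAPK8 rose 1.53-fold and RHOA 1.27-fold.

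Targets were read separately. All 16 SMAD2/3 target genes in the list were higher, against 23.4% of all tested genes. Their median log2 fold change was 1.89, and 16 of 16 were higher under every alternative tried. TGFBI rose from 14.6 ± 2.05 to 676.5 ± 16.4 CPM, 46.1-fold, PMEPA1 13.9-fold and JUNB 4.02-fold. These targets rose while the transcripts of SMAD2 and SMAD3 fell. The list was written with earlier results of these data known, so its direction is not independent evidence. Of 7 tested SMAD1/5 targets, 5 were higher, 1 lower and 1 did not pass, or 85.7% called against 47.3% of all tested genes. The higher count was 4 with DESeq2, with no low-count filter and when a term for replicate number was added. It was also 4 when any 1 of the control libraries, treated library 1 or treated library 3 was left out. ID3 rose 1.94-fold and ID1 1.68-fold, while ATOH8, named after its values were seen, fell from 4.93 ± 1.26 to 0.891 ± 0.605 CPM.

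**Figure D5:**
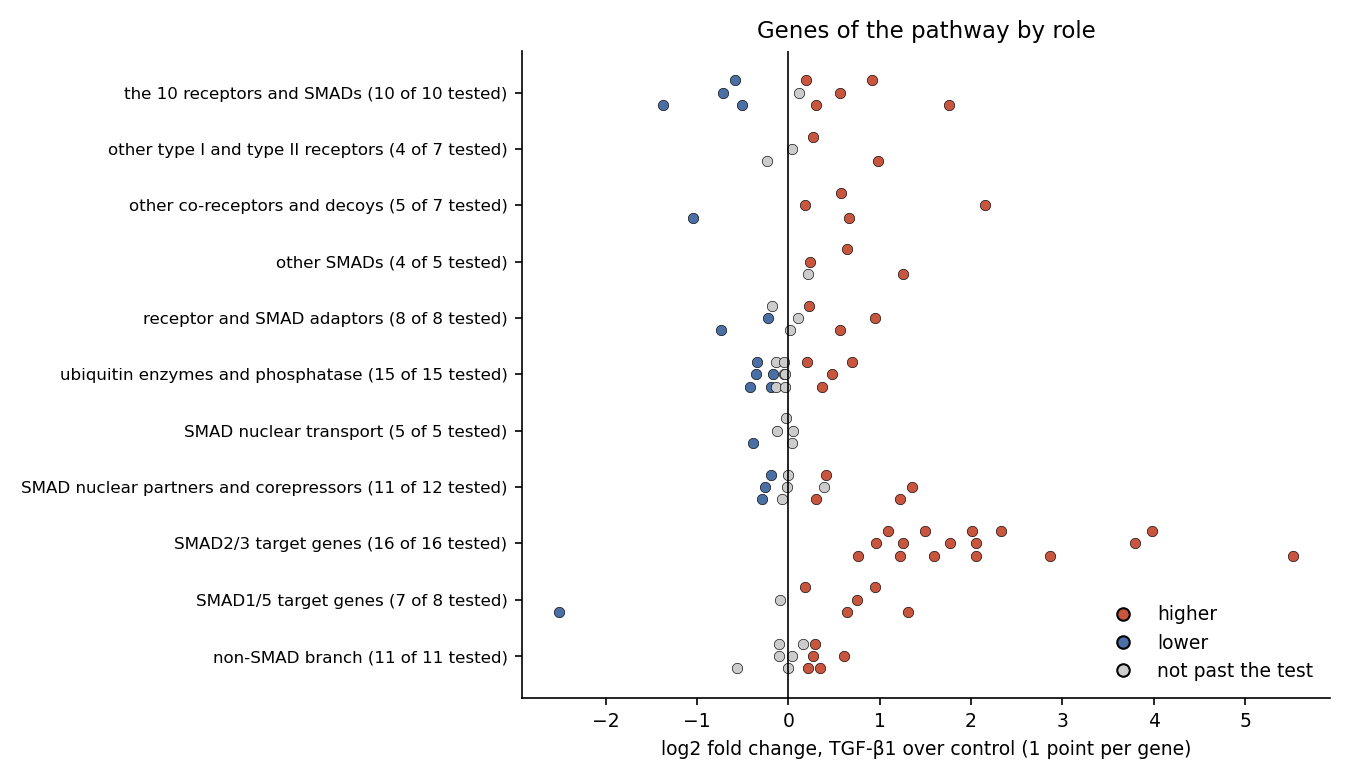
Log2 fold change of every tested gene of the pathway, TGF-β1 over control (x axis, 1 point per gene), grouped by role and coloured by the edgeR call. The 16 SMAD2/3 targets lie to the right of 0, while roles such as the adaptors and the nuclear partners hold genes on both sides.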

How the data were processed

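Total RNA was sequenced from cells labelled SW480, as 3 control and 3 TGF-β1-treated libraries; groups and replicate numbers were taken from the labels. The authors deposited whole-number read counts per gene symbol for each library, without normalization. Tools named in the submitters' processing notes are HTSeq, TopHat and TopHat2 2.0.11, with GRCh37 and hg19 as builds (roles unstated). Annotation, strand setting and read filters: not given in the sources used here. Totals of the counter, which are not genes (no feature 5.44% to 5.99%, ambiguous 9.01% to 9.43%, not unique 12.0% to 12.5%), stayed out of library sizes and tests; ambiguous and multiply aligned reads are thus missing from genes with close copies.

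Of 56638 gene rows, 14897 passed edgeR's filterByExpr (minimum count 10, minimum total 15). Counts were scaled by TMM and tested with edgeR 4.0.16 (R 4.3.3) in a robust quasi-likelihood fit with group as the only term, p-values being adjusted by Benjamini-Hochberg across every gene tested, at a threshold of 0.05. CPM is counts per 1000000 reads of the TMM-scaled library size. Levels per kilobase used union exon lengths of GENCODE 29, whose build (GRCh38) differs from the one named in the notes. Promoter windows came from the RefSeq table of GRCh38.p14. Ratios of counts per length within a library were compared on the log2 scale with an exact two-sided permutation test, with 0.5 added to each count. The edgeR, DESeq2 and limma fits were tested on simulated data. The SE of a log2 fold change was its size divided by the square root of edgeR's F statistic, which includes the spread between libraries. The 95% intervals apply a normal approximation to this SE, so they can be narrower than the quasi-likelihood test implies. The floor of 3 counts covers counting error only.

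The 10 genes, the lists and the tests were chosen with earlier results of these data known. All members could be named; of each list, up to 4 called genes with the lowest p could be, besides defining markers and genes said to be named after their values were seen. A gene under that rule stays in the counts but is not reported here by name. Alternatives were DESeq2 1.42.0, limma-voom 3.58.1, other scalings and low-count filters, the replicate number as a block, other lengths, and each library left out in turn. GC and length offsets and the shortest CCDS transcript were added after seeing the data.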

Additional observations from a re-analysis of the deposited data

How the results depend on the processing

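Each member's change was recomputed under 16 alternatives, 160 values in all. None turned direction, 3 lost the call (all TGFBR2, without control library 2, control library 3 or treated library 2) and 2 gained it (SMAD4, at an adjusted p of 0.0432 with library size alone and 0.00835 with GC and length offsets, added after seeing the data). Across alternatives the log2 fold change ran from 1.70 to 1.82 for TGFBR1, -1.40 to -1.31 for TGFBR3, -0.75 to -0.54 for SMAD2 and 0.063 to 0.21 for SMAD4. Of 544 values for 34 other pathway genes, which leave out EP300, CREBBP and SP1, 5 lost the call, all of ACVR2B (edgeR or DESeq2 adjusted p 0.0515 to 0.218). Library size alone raised the share of higher among called genes from 49.4% to 59.4% and the median log2 fold change of all genes to 0.057. The summed level of the 10 genes per kilobase depended on length: in control it was 109 by union exon length, 133 by longest transcript, 215 by shortest CCDS transcript and 107 with library size alone, and in treated libraries 128, 148 and 212 by the 3 lengths, so its small rise turned to a small fall with CCDS lengths.

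No pairing by replicate number was seen: deviations of same-numbered libraries correlated at 0.0306, -0.107 and -0.0481, and those of differently numbered ones at -0.093 to 0.138. With 3 libraries in each group this cannot exclude a small effect shared by a number. With the replicate number as a block, 6775 genes were called against 7044, and 5 members were higher and 4 lower, as without it. Depth limits the low genes most: ACVR1, with 466 counts over the 3 control libraries, had the largest SE of the 10, 0.097 on the log2 scale.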

Other observations

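The genes whose pattern over the 6 libraries lay nearest to that of TGFBR1, by Euclidean distance of log2 CPM centred on the control mean among 11618 genes, were CREG2 (distance 0.122, log2 fold change 1.78), TUBA1A (0.145, 1.82) and DIXDC1 (0.151, 1.73). Nearest to TGFBR3 were GSR (0.106, -1.37), KLHL13 (0.109, -1.37) and KITLG (0.118, -1.40).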
